A study of Arabidopsis thaliana with 72 samples.

Results

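The expression of 5 Arabidopsis genes that serve as regulators or markers of leaf senescence was followed across lines, organs and nitrate supplies. They were the transcription factor genes WRKY53 (AT4G23810) and WRKY6 (AT1G62300), SAG101 (AT5G14930), PPDK (AT4G15530) and SAG29 (AT5G13170, also named SWEET15). The genes were taken by name, with earlier results of these data known, and a probe set, the group of array probes that reports on a transcript, was accepted only where the platform annotation paired it with that gene alone. All 5 genes had 1 such probe set, which makes 5 of the 13356 genes with a probe set of their own and 5 of the 22746 probe sets in the table, and no probe set was shared between any of them and another gene.

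The study grew Arabidopsis thaliana seedlings for 21 days after sowing on vertical agar plates with 1% sucrose, either at low nitrate (0.4 mM, with calcium nitrate as its source and potassium chloride added) or at sufficient nitrate (9 mM, given as potassium and calcium nitrate), under 16 h of light and 8 h of dark. Shoots and roots were analysed separately on Affymetrix arrays. There were 6 lines: the natural accessions El-0 and Fei-0, and 4 recombinant inbred lines, which are inbred descendants of a cross, namely KB006 from Kondara and Br-0, NG064 and NG087 from Nok-3 and Ga-0, and SG063 from Sorbo and Gy-0. A group was 1 line, 1 organ and 1 supply, and each of these 24 groups had 3 arrays, 72 in all. The labels name no transgene or mutant allele in any line, and they describe each biological replicate as a pool of 30 plants from 3 plates, so the values carry no information on single plants. The labels also mention 6 seeds per dish, which does not match that number of plants. Nothing in the labels gives separate growth runs, so p-values measure the spread between these pools.

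Leaf senescence is the ordered last phase of a leaf's life, in which chloroplasts are dismantled and nitrogen is exported to growing tissue, and shortage of nitrogen is among the conditions known to bring it on. WRKY53 is a transcription factor known to promote the onset of leaf senescence, and WRKY6 is a transcription factor known from senescing leaves, from defence and from roots. SAG101 was first described as an acyl hydrolase of senescing leaves and is also a partner of EDS1 in immune signalling. PPDK (pyruvate, orthophosphate dikinase) interconverts pyruvate and phosphoenolpyruvate and is known to assist nitrogen remobilisation from ageing leaves. SAG29 encodes a sucrose transporter of the SWEET family at the plasma membrane and is widely used as a marker of late senescence.

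All values are the deposited log2 expression values, on which a difference of 1 is a doubling. The values compare groups for 1 gene at a time, because the brightness of different probe sets is not comparable. Of the 72 arrays, 68 correlated best with the mean of the other arrays of their own organ and nitrate supply (r between 0.956 and 0.993), and 4, all labelled Fei-0 replicate 3, correlated better with another. The array labelled low-nitrate shoot was closest to sufficient-nitrate shoots (r = 0.983, against 0.962 with its own label) and the array labelled sufficient-nitrate shoot was closest to low-nitrate roots (0.988 against 0.789). The array labelled low-nitrate root was closest to sufficient-nitrate roots (0.987 against 0.977) and the array labelled sufficient-nitrate root was closest to low-nitrate shoots (0.985 against 0.859). These 4 arrays were left out of the values reported, which leaves 17 arrays for each organ and nitrate supply and 2 in each Fei-0 group. The main results are also given with all 72 arrays as labelled. Array medians lay between 5.72 and 6.04. In such bulk samples, fewer cells of a type and less RNA per cell cannot be told apart.

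In shoots, 4 of the 5 genes were higher at low than at sufficient nitrate in the mean over the 6 lines. WRKY6 was 3.59-fold higher, WRKY53 3.36-fold, PPDK 3.09-fold and SAG101 1.68-fold, and SAG29 showed no called difference. A gene was called where limma's Benjamini-Hochberg adjusted p over all 22746 probe sets was below 0.05. At that threshold 28% of all probe sets were called higher at low nitrate in shoots and 21.9% lower, so a rise as such was common. Probe sets near the bottom of the scale count in these shares and in the others given below. Of all deposited values, 27% lay within 0.1 of the lowest. Among the 12788 probe sets with a shoot mean of 5 or more, fitted alone, 5383 were called higher and 3938 lower. The median difference of the 5 genes was 1.63 on the log2 scale, where that of all probe sets was close to 0. Centring every array on its own median moved the difference of all probe sets in shoots to a median of -0.18 and the calls to 4634 higher and 13125 lower, against 6379 and 4979 as deposited, and the same 4 genes stayed called (SAG101 0.57, WRKY53 1.56, WRKY6 1.66 and PPDK 1.44). Centring also shifts readings at the bottom of the scale, so counts with centred arrays, here and below, are no measure of how many genes changed. The part of such readings in these counts was not tested. The same 4 genes were called higher with all 72 arrays as labelled, with log2 differences of 0.72 for SAG101, 1.73 for WRKY53, 1.59 for WRKY6 and 1.88 for PPDK.

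In roots fewer of the genes were called. SAG29 was higher at low nitrate by 0.70 on the log2 scale and WRKY53 by 0.61, so 2 of 5 genes were called higher and none lower, where 23.6% of all probe sets were called higher and 19.1% lower. SAG101, WRKY6 and PPDK were not called. Among the 12902 probe sets with a root mean of 5 or more, fitted alone, 4607 were called higher and 3583 lower. SAG29, WRKY53 and PPDK are not among those. Centring gave 11201 probe sets higher and 4114 lower in roots, against 5376 and 4350 as deposited, with the same members called. The median difference of the 5 genes in roots was 0.57.

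**Figure D1:**
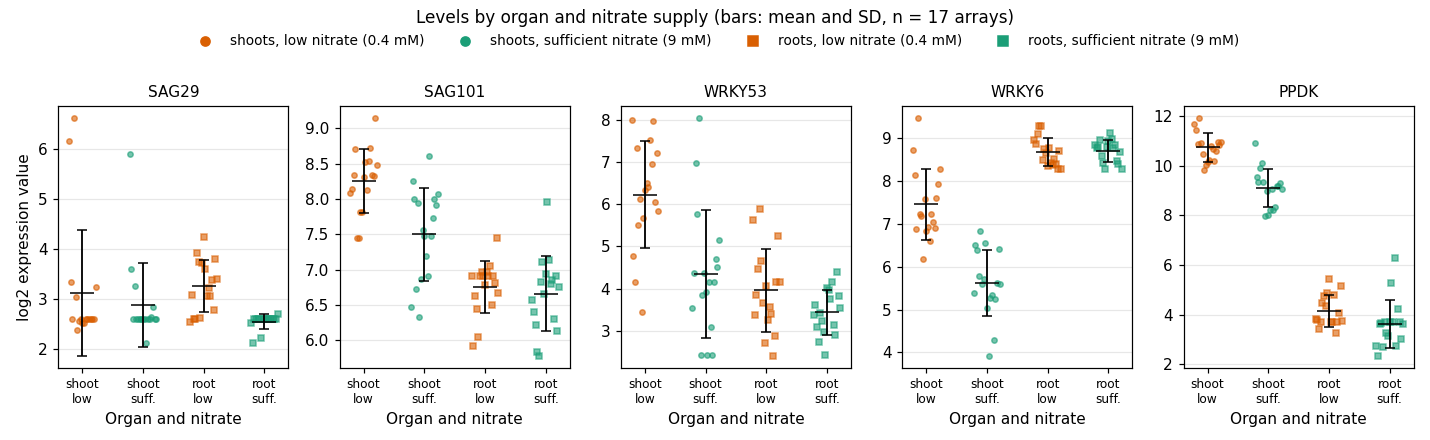
Deposited log2 expression value of each gene (vertical axes, 1 scale per gene) in the 17 arrays of each organ and nitrate supply, with circles for shoots, squares for roots and black bars for mean and SD. In shoots the low-nitrate arrays of PPDK and WRKY6 sit mostly above the sufficient-nitrate arrays, PPDK is far lower in roots, and WRKY6 has its highest means in roots.

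WRKY53, the senescence-promoting regulator, lay between 3.44 and 7.99 with a median of 6.34 in the 17 low-nitrate shoot arrays, against 2.42 to 8.05 with a median of 4.15 in the 17 sufficient-nitrate shoot arrays. The low-nitrate shoots were thus generally higher, but the ranges overlapped widely, and the highest single value belonged to a sufficient-nitrate Fei-0 array. The mean difference over lines was 1.75 ± 0.40 (moderated SE, limma, adjusted p = 0.000772).

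The estimated response of WRKY53 ranged widely among lines. In NG087 shoots WRKY53 read 7.53, 6.95 and 7.98 at low nitrate, against 3.08, 2.42 and 4.15 at sufficient nitrate. In NG064 shoots it read 6.34, 6.51 and 6.41 at low nitrate, against 3.91, 2.42 and 4.15 at sufficient nitrate. The 2.42 in each line lay near the lowest value of the table, 2.11, and 5 of the 68 arrays share the reading of 4.15. The rises in both lines, and the mean rise of WRKY53 in shoots, are thus not exact folds. In these 2 sister lines every low-nitrate array was above every sufficient-nitrate array, and both rises were called, with 4.27 ± 0.95 in NG087 (limma, adjusted p = 0.00209) and 2.93 ± 0.95 in NG064 (adjusted p = 0.0275). In the shoots of single lines, 14.1% of all probe sets were called higher at low nitrate in El-0, 8.53% in Fei-0, 13.1% in KB006, 12.5% in NG064, 12.7% in NG087 and 14.9% in SG063. As labelled, with all 72 arrays, the NG087 rise kept its call and the NG064 rise did not (adjusted p = 0.0695), and leaving out any of 4 NG064 shoot arrays also ended the NG064 call.

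The accessions did not separate the supplies for WRKY53. El-0 shoots read 7.99, 4.76 and 4.17 at low nitrate and 3.55, 4.38 and 6.97 at sufficient nitrate, and Fei-0 shoots read 7.33 and 5.50 at low nitrate and 5.77 and 8.05 at sufficient nitrate. Both accessions therefore overlapped between the supplies, with differences of 0.68 ± 0.95 in El-0 and -0.50 ± 1.16 in Fei-0 that were not called. KB006 (1.53) and SG063 (1.58) had positive differences that were also not called. Arrays did not overlap between the supplies in 3 of 6 lines, NG064, NG087 and SG063. Among all probe sets, low-nitrate arrays were wholly above in 16.7% in El-0, 21.4% in Fei-0, 19.6% in KB006, 20.6% in NG064, 19.9% in NG087 and 22.2% in SG063. The test of whether the 6 lines responded unequally did not call WRKY53 in shoots (limma F test, unadjusted p = 0.0457, adjusted p = 0.505), and 1.11% of all probe sets were called by it.

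WRKY53 was lower in roots and near the bottom of the array's range in some of them. Root values lay between 2.41 and 5.89 with a median of 3.84 at low nitrate, against 2.42 to 4.38 with a median of 3.41 at sufficient nitrate. The difference of 0.61 ± 0.22 was called (limma, adjusted p = 0.0315), but it was 0.43 with all 72 arrays as labelled (adjusted p = 0.198) and 0.31 without the Fei-0 line (adjusted p = 0.333). Leaving out any of 8 single root arrays, from Fei-0, KB006, NG064, NG087 or SG063, also ended the call (adjusted p up to 0.0982). Fei-0 roots read 4.47 and 5.89 at low nitrate, against 2.73 and 3.41 at sufficient nitrate. This was the only line called (2.11, limma, adjusted p = 0.0394; 1.03 and adjusted p = 0.293 with all 72 arrays as labelled) and the only one with no overlap. The Fei-0 call was lost on leaving out any of 3 of its 4 arrays (adjusted p up to 0.492). In the roots of single lines, 7.17% of all probe sets were called higher in El-0, 5.06% in Fei-0, 13.9% in KB006, 12.7% in NG064, 10.4% in NG087 and 11.4% in SG063. NG064 and NG087, the lines with the largest WRKY53 response in shoots, had differences of -0.29 and -0.50 in roots, neither of them called.

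WRKY6 had the largest estimated mean response of the 5 genes in shoots, close to that of WRKY53. Its shoot values lay between 6.18 and 9.47 with a median of 7.22 at low nitrate, against 3.93 to 6.84 with a median of 5.60 at sufficient nitrate. The ranges overlapped only at their edges, and the difference was 1.84 ± 0.23 (limma, adjusted p = 2.81e-07).

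By line, the WRKY6 response in shoots was 2.09 in NG087, 2.06 in SG063, 2.04 in Fei-0, 2.03 in NG064, 1.82 in El-0 and 1.02 in KB006. All but that of KB006 (adjusted p = 0.186) were called by limma, and the same 5 lines had every low-nitrate array above every sufficient-nitrate array. KB006 shoots read 7.17, 6.18 and 7.57 at low nitrate and 5.60, 5.70 and 6.55 at sufficient nitrate, so they overlapped through low-nitrate replicate 2 and sufficient-nitrate replicate 3. Of these 5 calls 3 held with all 72 arrays as labelled, and El-0 (adjusted p = 0.075) and Fei-0 (0.53, adjusted p = 0.96) lost theirs. Leaving out any of 2 El-0 arrays, 2 Fei-0 arrays or 1 NG064 array ended the call of that line (estimates down to 1.41, 0.91 and 1.62). NG064 shoots read 6.83, 6.92 and 6.60 at low nitrate and 5.04, 3.93 and 5.27 at sufficient nitrate, among the lowest of any line. The lines were not shown to respond unequally (F test of the interaction, limma, adjusted p = 1).

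In roots WRKY6 was high at either supply and hardly moved on average. It lay between 8.27 and 9.28 with a median of 8.65 at low nitrate, against 8.26 to 9.12 with a median of 8.77 at sufficient nitrate. The mean difference was 0.00 ± 0.06, with a 95% interval of -0.12 to 0.13 and an estimate of 0.06 with all 72 arrays as labelled.

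That mean hid lines of opposite sign. NG064 roots read 8.35, 8.76 and 8.41 at low nitrate, against 8.92, 9.12 and 8.97 at sufficient nitrate, and this fall by 0.50 was called (limma, adjusted p = 0.0125), where 11.6% of all probe sets were called lower in NG064 roots. It lost the call with all 72 arrays as labelled (adjusted p = 0.221), without NG064 low-nitrate replicate 1 (-0.42, adjusted p = 0.0743) and without NG064 sufficient-nitrate replicate 2 (-0.44, adjusted p = 0.0519). Fei-0 roots read 9.28 and 9.28 at low nitrate, against 8.96 and 8.58 at sufficient nitrate, a difference of 0.51 that was not called (adjusted p = 0.0703); with all 72 arrays as labelled it was 0.85 and called (adjusted p = 0.0451), as it was without Fei-0 sufficient-nitrate replicate 1 (0.70, adjusted p = 0.0377) or KB006 sufficient-nitrate replicate 3 (0.51, adjusted p = 0.0488). Low-nitrate arrays were wholly above in El-0 and Fei-0, wholly below in NG064, where 16.4% of all probe sets were, and overlapped in the other lines.

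The F test over lines called WRKY6 in roots (limma, adjusted p = 0.0441), the only 1 of the 5 genes, where 6.24% of all probe sets were called. It was not called with all 72 arrays as labelled (adjusted p = 0.217) or without the Fei-0 line (adjusted p = 0.139), and leaving out any of 21 of the 34 root arrays also ended the call. Tested singly against the other 5 lines, NG064 differed by -0.60 ± 0.16 (adjusted p = 0.0572) and Fei-0 by 0.61 ± 0.19 (adjusted p = 0.117), neither of them called, where 1.41% and 0.985% of all probe sets were.

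**Figure D2:**
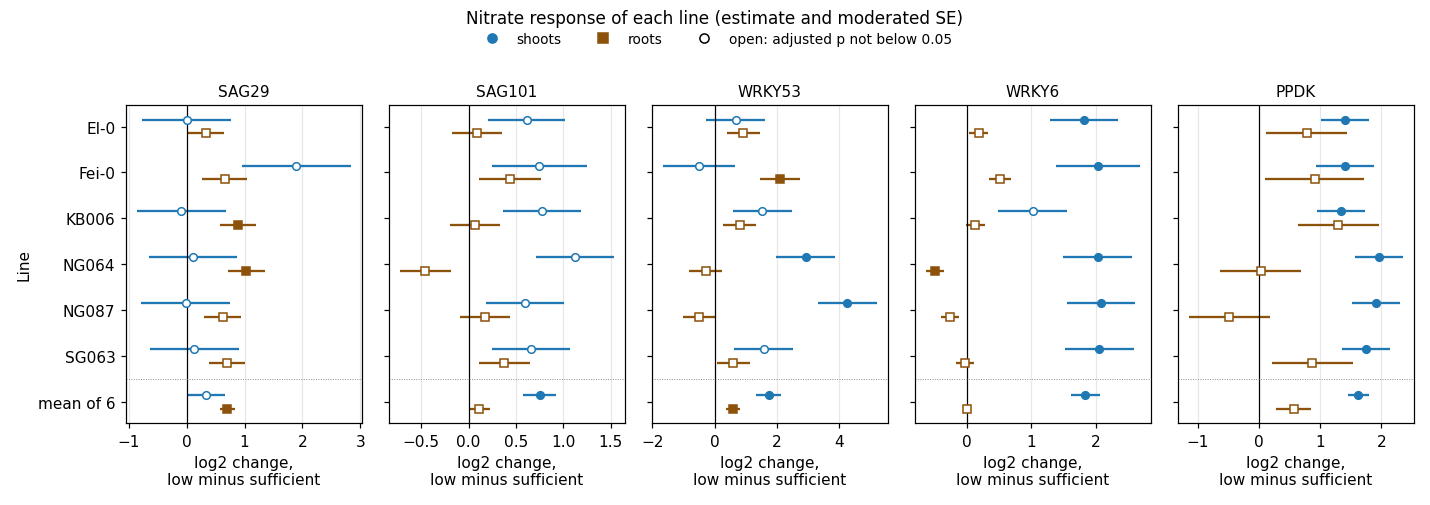
Nitrate response of each gene (horizontal axes, low minus sufficient nitrate on the log2 scale) in each of the 6 lines and in their mean (vertical axis), with the moderated standard error as bars and open symbols where the response was not called. PPDK lies above 0 in the shoots of all 6 lines, WRKY53 in NG064 and NG087 shoots reaches 2.93 and 4.27, and WRKY6 in roots lies on both sides of 0.

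SAG101, first described as an acyl hydrolase and also an EDS1 partner, had the smallest of the called responses in shoots. In shoots it lay between 7.44 and 9.15 with a median of 8.33 at low nitrate, against 6.33 to 8.61 with a median of 7.56 at sufficient nitrate. The groups overlapped over much of their range, and the difference was 0.75 ± 0.17 (limma, adjusted p = 0.000795).

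The SAG101 difference was positive in the shoots of all 6 lines, between 0.60 in NG087 and 1.12 in NG064, and was called in none of them. NG064 came nearest (limma, adjusted p = 0.0505), with 8.30, 8.52 and 8.13 at low nitrate and 7.48, 7.19 and 6.92 at sufficient nitrate. The last of these is a reading of SAG101 that 6 of the 68 arrays share. The NG064 difference stayed at 1.12 and was called on leaving out any of 11 arrays of other lines (adjusted p down to 0.0188). SG063 read 8.33, 9.15 and 8.48 at low nitrate and 8.00, 7.91 and 8.07 at sufficient nitrate. These were the 2 lines without overlap. KB006 had the lowest SAG101 in shoots, with 7.44, 7.82 and 7.81 at low nitrate and 6.33, 6.87 and 7.56 at sufficient nitrate.

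In roots SAG101 lay between 5.92 and 7.45 with a median of 6.91 at low nitrate, against 5.78 to 7.96 with a median of 6.75 at sufficient nitrate. The supplies overlapped in full, with a difference of 0.11 ± 0.11 and a 95% interval of -0.12 to 0.35 (limma, adjusted p = 0.497). With all 72 arrays as labelled the difference was -0.01. The repeated reading of 6.92 stood in 5 root arrays and lies close to the low-nitrate median. What the repeat means for the root result was not tested.

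PPDK, the enzyme at the pyruvate and phosphoenolpyruvate branch, was the only gene of the 5 called in the shoots of all 6 lines. Its shoot values lay between 9.81 and 11.92 with a median of 10.80 at low nitrate, against 7.99 to 10.91 with a median of 9.17 at sufficient nitrate. The difference was 1.63 ± 0.17 (limma, adjusted p = 1.52e-08). With all 72 arrays as labelled the mean difference was still called (1.88, adjusted p = 0.000223), but 0 of the 6 single lines were (adjusted p between 0.179 and 0.407). The standard error of a single-line difference was 0.92 there and, outside Fei-0, 0.39 with the 4 arrays left out.

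The PPDK response in shoots ran from 1.33 in KB006 to 1.96 in NG064. NG064 read 10.15, 10.25 and 10.80 at low nitrate, against 8.03, 8.21 and 9.08 at sufficient nitrate. NG087 read 10.68, 10.21 and 10.60 at low nitrate, against 8.23, 8.33 and 9.19 at sufficient nitrate. SG063 read 10.95, 10.83 and 10.97 at low nitrate, against 9.17, 9.29 and 9.05 at sufficient nitrate. Every low-nitrate array stood above every sufficient-nitrate array in these 3 lines.

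The accessions had the highest PPDK means in shoots. El-0 shoots read 11.70, 11.42 and 10.88 at low nitrate and 10.91, 9.53 and 9.35 at sufficient nitrate, and Fei-0 shoots read 11.92 and 10.90 at low nitrate and 9.91 and 10.10 at sufficient nitrate. KB006 shoots read 10.49, 9.81 and 10.04 at low nitrate and 9.34, 7.99 and 9.00 at sufficient nitrate. Arrays overlapped only in El-0, through its sufficient-nitrate replicate 1. Fei-0, with 2 arrays per supply, was the least certain call (1.40, limma, adjusted p = 0.0486), and it was lost on leaving out any of 24 of the 34 shoot arrays. The calls of El-0 (adjusted p up to 0.0635) and KB006 (up to 0.115) were each lost on leaving out any of 2 arrays of that line.

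In roots PPDK was low, between 3.28 and 5.43 with a median of 3.83 at low nitrate, against 2.35 to 6.29 with a median of 3.64 at sufficient nitrate. The difference of 0.57 ± 0.28 was not called (limma, adjusted p = 0.115, 95% interval -0.01 to 1.15), and it was 0.09 with all 72 arrays as labelled. NG087 at sufficient nitrate replicate 1 held the highest root value, 6.29, where the other NG087 arrays of that supply read 2.72 and 4.25. Without that array the difference was 0.72 and was called (adjusted p = 0.0155).

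SAG29, the sucrose transporter and late-senescence marker, was the exception in shoots. It read 2.59 in 32 of the 68 arrays, 19 of shoots and 13 of roots, and the lowest value of the whole table was 2.11, so most shoots gave no reading that could be ordered. Shoot values lay between 2.36 and 6.61 with a median of 2.59 at low nitrate, against 2.11 to 5.89 with a median of 2.59 at sufficient nitrate. The difference of 0.34 ± 0.33 was not called (limma, adjusted p = 0.431, 95% interval -0.34 to 1.01).

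The few bright SAG29 values in shoots came from the accessions. El-0 read 6.15, 3.32 and 2.59 at low nitrate and 5.89, 3.59 and 2.59 at sufficient nitrate. Fei-0 read 6.61 and 3.03 at low nitrate and 3.26 and 2.59 at sufficient nitrate. Replicate 1 was the brightest in each of these 4 groups, and the remaining lines stayed between 2.11 and 3.23 at either supply. The values of 6.15, 5.89 and 6.61 stood in arrays whose r with their own condition was 0.981, 0.956 and 0.971. Of these, 0.956 was the lowest among the 68 arrays used. What this means for the readings was not tested. The difference in level among lines was not called for SAG29 in shoots (limma F test, adjusted p = 0.0745), though it was without El-0 low-nitrate replicate 3 (0.0274), El-0 sufficient-nitrate replicate 3 (0.0278) or Fei-0 low-nitrate replicate 2 (0.00565).

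In roots SAG29 had the lowest adjusted p of the 5 genes. It lay between 2.54 and 4.23 with a median of 3.21 at low nitrate, against 2.11 to 2.70 with a median of 2.59 at sufficient nitrate. The difference was 0.70 ± 0.13 (limma, adjusted p = 0.000127), and it was 0.58 with all 72 arrays as labelled (adjusted p = 0.00383). All sufficient-nitrate root arrays lay at or below 2.70, close to the value of 2.59 that many arrays share, so the difference is set against readings near the bottom of the scale and is not an exact fold.

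By line, SAG29 roots of NG064 read 4.23, 3.60 and 3.05 at low nitrate and 2.59 on each array at sufficient nitrate. NG087 read 3.21, 3.06 and 3.38 at low nitrate and again 2.59 on each array at sufficient nitrate. KB006 read 3.73, 2.61 and 3.72 at low nitrate and 2.60, 2.21 and 2.59 at sufficient nitrate. Low-nitrate arrays were wholly above in 5 of 6 lines, all but El-0, but the gap between the nearest arrays was 0.46 in NG064, 0.47 in NG087 and 0.085 in SG063, and only 0.0083 in KB006 and 0.0027 in Fei-0, at the repeated low value. Among all probe sets this held for 14.3% in El-0, 18.8% in Fei-0, 18.4% in KB006, 19.1% in NG064, 15.8% in NG087 and 17.3% in SG063. The rises in NG064 (1.03, limma, adjusted p = 0.0184) and KB006 (0.88, adjusted p = 0.0421) were called, and neither was with all 72 arrays as labelled (adjusted p = 0.068 and 0.119). The NG064 call was lost without its low-nitrate replicate 1 (0.73, adjusted p = 0.142), and the KB006 call without any of 5 of its 6 root arrays and with the replicate number as a block (adjusted p = 0.0549).

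**Figure D3:**
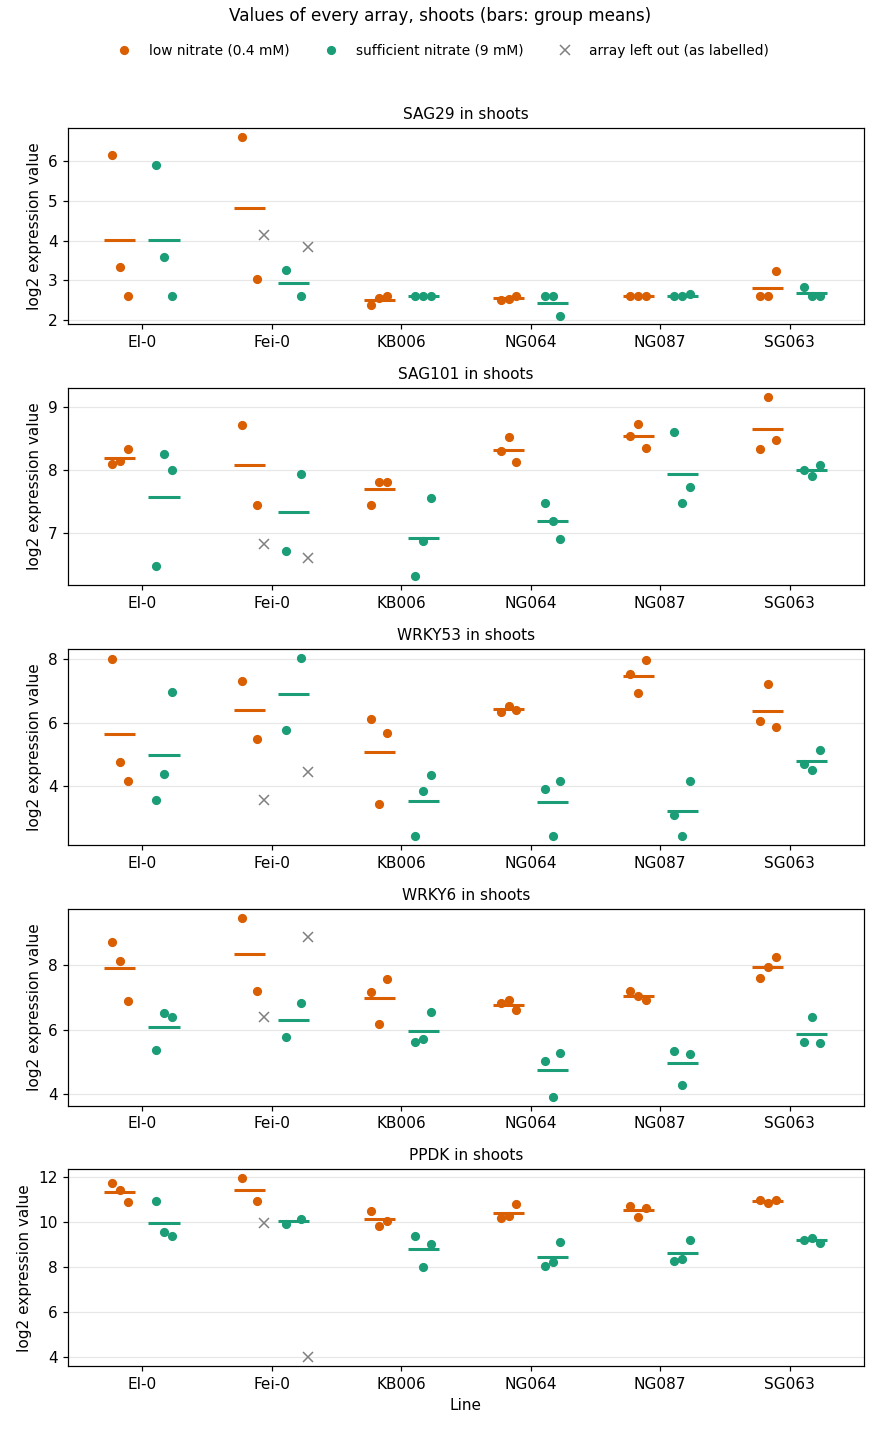
Log2 expression value of each gene (vertical axes) in every shoot array by line, with orange for low nitrate, green for sufficient nitrate, bars for group means and crosses for the arrays left out. PPDK is separated between the supplies in all lines but El-0, and SAG29 is above 5 in only 3 arrays used, all of El-0 or Fei-0.

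**Figure D4:**
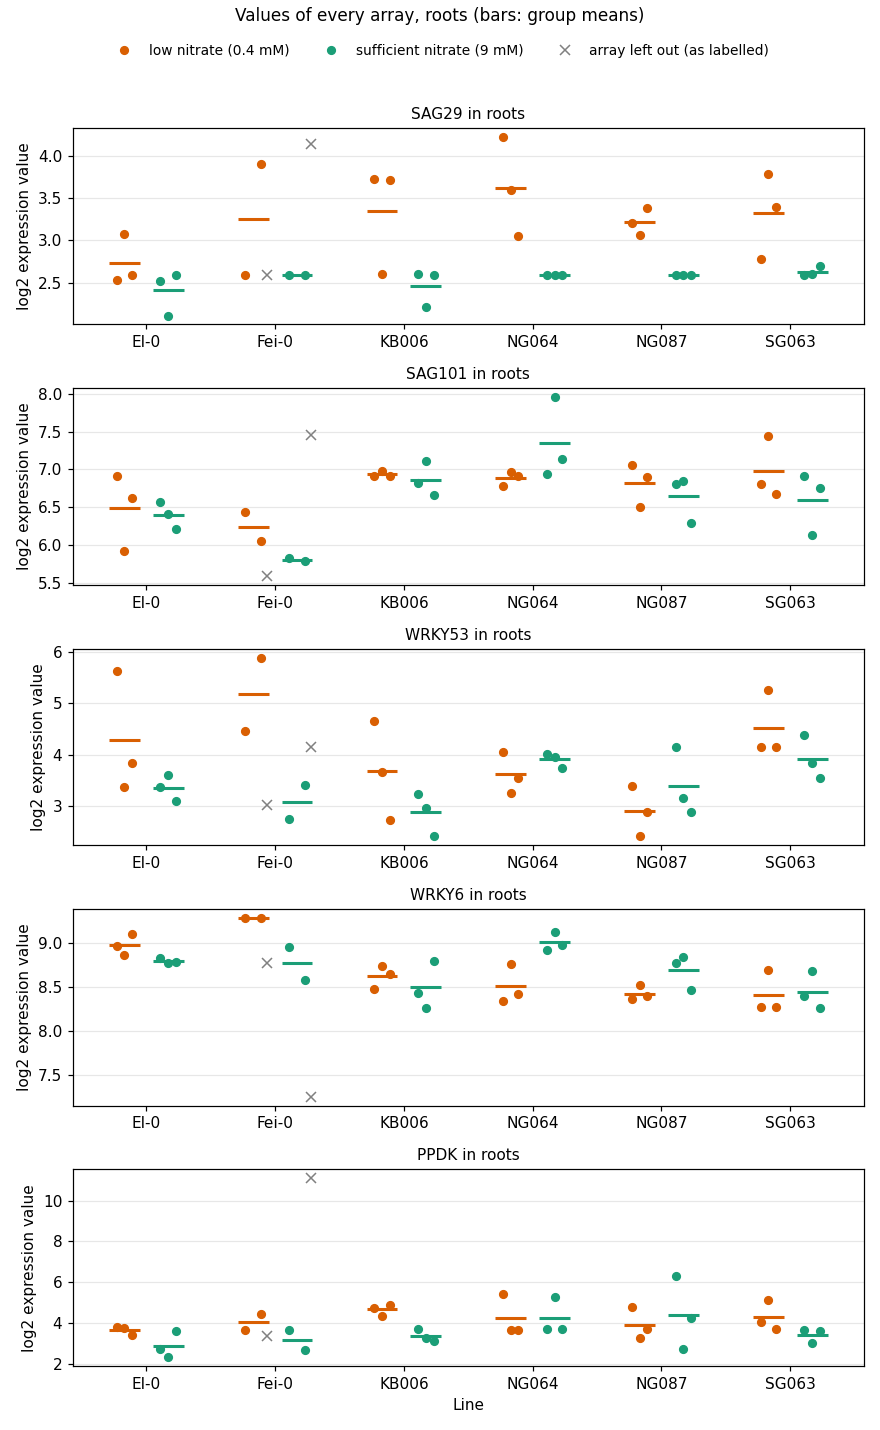
The same plot for roots. SAG29 at low nitrate stands clearly above its sufficient-nitrate arrays in NG064 and NG087 (gaps of 0.46 and 0.47), and in Fei-0 and KB006 the nearest arrays are level to the eye, WRKY6 in the arrays used stays between 8.26 and 9.28, with a left-out array at 7.25, and the cross at 11.09 for PPDK is the left-out array labelled Fei-0 sufficient-nitrate root.

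The levels of the genes in the 6 lines, taken as the mean over both supplies, were compared next. In shoots the F test called PPDK (limma, adjusted p = 0.00118) and WRKY6 (adjusted p = 0.0177), 2 of 5 genes, where 35.9% of all probe sets were called. Neither call held with all 72 arrays as labelled (adjusted p = 0.581 for PPDK and 0.0568 for WRKY6). From high to low, PPDK averaged 10.71 in Fei-0, 10.63 in El-0, 10.04 in SG063, 9.54 in NG087, 9.44 in KB006 and 9.42 in NG064. Against the mean of the other 5 lines, El-0 was higher by 0.80 ± 0.22 (adjusted p = 0.0132), Fei-0 higher by 0.90 ± 0.26 (adjusted p = 0.0184) and NG064 differed by -0.66 ± 0.22 (adjusted p = 0.0486). In such comparisons of 1 line in shoots, 15.4% of all probe sets were called in El-0, 15.6% in Fei-0, 14.6% in KB006, 12.3% in NG064, 9.14% in NG087 and 10.2% in SG063. With all 72 arrays as labelled the Fei-0 value was -0.36, and neither accession nor NG064 was called. With 1 array left out, the calls of El-0 and Fei-0 were each lost in 2 of 34 fits (lowest values 0.56 and 0.64) and that of NG064 in 23.

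WRKY6 in shoots averaged 7.32 in Fei-0, 7.00 in El-0, 6.90 in SG063, 6.46 in KB006, 6.01 in NG087 and 5.76 in NG064, and only NG064 was called against the other lines (-0.97 ± 0.30, limma, adjusted p = 0.0312). That call was lost on leaving out any of 4 arrays (values between -1.01 and -0.77). The order was thus nearly that of PPDK, with both accessions on top and NG064 last. SAG101 in shoots was lower in KB006 than in the other lines (-0.68 ± 0.23, adjusted p = 0.0466), although its F test missed the threshold (adjusted p = 0.0593) and leaving out any of 26 of the 34 shoot arrays ended the call, as did the replicate number as a block (adjusted p = 0.0532).

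In roots the F test called WRKY6 (limma, adjusted p = 0.000458) and SAG101 (adjusted p = 0.00178), again 2 of 5 genes, where 56% of all probe sets were called. With all 72 arrays as labelled SAG101 was still called (adjusted p = 0.0346) and WRKY6 was not (adjusted p = 0.301), and without the Fei-0 line SAG101 was not (adjusted p = 0.0603). WRKY6 averaged 9.03 in Fei-0, 8.88 in El-0, 8.76 in NG064, 8.56 in both KB006 and NG087, and 8.43 in SG063. Fei-0 was above the other lines by 0.39 ± 0.09 (adjusted p = 0.00475), El-0 was above them by 0.22 ± 0.08 (adjusted p = 0.0472) and SG063 differed by -0.33 ± 0.08 (adjusted p = 0.00329). The El-0 call was lost on leaving out any of 23 of the 34 root arrays, and that of Fei-0 on leaving out 1 (0.30, adjusted p = 0.0726).

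SAG101 in roots averaged 7.12 in NG064, 6.90 in KB006, 6.79 in SG063, 6.74 in NG087, 6.44 in El-0 and 6.03 in Fei-0. Some of these means include the repeated reading of 6.92. NG064 was above the other lines by 0.54 ± 0.15 (limma, adjusted p = 0.00785) and Fei-0 differed by -0.77 ± 0.17 (adjusted p = 0.00273). The NG064 call was lost without 1 of its arrays (0.39, adjusted p = 0.0547). In such comparisons of 1 line in roots, 25.6% of all probe sets were called in El-0, 17.1% in Fei-0, 29% in KB006, 27.5% in NG064, 21.1% in NG087 and 25.6% in SG063. Of the 10 called levels of single lines in shoots and roots, 1 was also called with all 72 arrays as labelled, that of SAG101 in Fei-0 roots. Fei-0 thus had the highest WRKY6 and the lowest SAG101 mean in roots, each over 4 arrays.

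Shoots were then set against roots within each supply. At low nitrate PPDK was higher in shoots by 6.62 ± 0.23 (limma, adjusted p = 4.71e-29), WRKY53 by 2.21 ± 0.33 (adjusted p = 6.66e-08) and SAG101 by 1.52 ± 0.15 (adjusted p = 8.61e-13). Root PPDK was dim, and no detection calls were used here. Where its root readings are background, the PPDK differences at low and at sufficient nitrate are lower bounds. WRKY6 was the reverse, with -1.20 ± 0.17 (adjusted p = 1.43e-08). SAG29 did not differ beyond its error (-0.04, 95% interval -0.54 to 0.47). With 3 of 5 genes higher in shoots and 1 lower, the background was 25.7% higher and 36.8% lower among all probe sets. With centred arrays 5510 probe sets were called higher in low-nitrate shoots and 12195 lower, and in sufficient-nitrate shoots 12336 higher and 7420 lower, and the directions of the called genes were kept.

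At sufficient nitrate the directions were the same, with 28.4% of all probe sets higher in shoots and 38.8% lower. PPDK was higher in shoots by 5.56 ± 0.23, SAG101 by 0.88 ± 0.15 and WRKY53 by 1.07 ± 0.33 (limma, adjusted p = 0.00367), and WRKY6 differed by -3.04 ± 0.17 (adjusted p = 1.73e-21). Without the Fei-0 line the WRKY53 difference at sufficient nitrate was 0.51 and was not called (adjusted p = 0.181). SAG29 differed by 0.33, with a 95% interval of -0.18 to 0.83 (adjusted p = 0.254). With all 72 arrays as labelled the same genes were called in the same directions: at low nitrate PPDK differed by 6.57, WRKY53 by 2.17, SAG101 by 1.48 and WRKY6 by -1.28, and at sufficient nitrate PPDK by 4.78, WRKY53 by 0.87, SAG101 by 0.75 and WRKY6 by -2.82. WRKY6 was thus the only 1 of the 5 genes called higher in roots, and SAG29 was not called at either supply.

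The difference between the shoot response and the root response was tested in the same joint model of both organs, with the same limits. It was called for WRKY6 (1.84 ± 0.24, limma, adjusted p = 1.05e-08), PPDK (1.06 ± 0.33, adjusted p = 0.00686), SAG101 (0.64 ± 0.21, adjusted p = 0.0108) and WRKY53 (1.14 ± 0.46, adjusted p = 0.0418). Thus 4 of 5 genes were called as more positive in shoots, where 24.5% of all probe sets were and 19% were called the opposite. Root readings of PPDK (medians of 3.83 at low and 3.64 at sufficient nitrate) and WRKY53 (3.84 and 3.41) were dim. For both, a smaller root response cannot be told from one held down near the bottom of the scale. SAG29 ran the other way without a call (-0.37 ± 0.35, adjusted p = 0.442). With centred arrays, under which 3652 probe sets were called higher and 12597 lower in this contrast against 5564 and 4329 as deposited, SAG101 (0.42, adjusted p = 0.0597) and WRKY53 (0.93, adjusted p = 0.0648) lost the call, and so did WRKY53 on leaving out any of 26 of the 68 arrays. All 72 arrays as labelled gave 1.53 for WRKY6, 1.79 for PPDK, 0.74 for SAG101 and 1.30 for WRKY53, each called.

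Other features of the low-nitrate shoots moved with these genes. The 100 probe sets most enriched in roots, chosen at sufficient nitrate and holding none of the 5 genes, averaged 4.80 ± 0.88 in low-nitrate shoots, between 2.99 and 6.35, and 3.52 ± 0.45 in sufficient-nitrate shoots, between 2.79 and 4.52 (SD, n = 17 each). The 100 most enriched in shoots averaged 9.84 ± 0.38 in low-nitrate shoots and 11.07 ± 0.13 in sufficient-nitrate shoots. Both sets were chosen on these sufficient-nitrate arrays, so that choice itself favours a shift of this direction at low nitrate, and it is given as a description. A list of 9 photosynthesis and chlorophyll genes used as shoot markers summed to between 102 and 112 in low-nitrate shoots, against 113 to 117 in sufficient-nitrate shoots. In roots that sum was between 32.4 and 50.8 at low nitrate and between 61.8 and 77.8 at sufficient nitrate. The lowest shoot value of any of the 9 was 7.00, far above the bottom of the scale. A list of 6 genes set down as root markers, namely PYK10, NAI1, NAI2, JAL22 and JAL33 of the ER body defence system and the sugar transporter gene SWEET14, summed to between 40.1 and 54.1 in low-nitrate shoots, against 42.1 to 51.2 in sufficient-nitrate shoots. In roots that sum was between 57.4 and 63.6 at low nitrate and between 59.6 and 65.2 at sufficient nitrate. SWEET14 did not mark roots at sufficient nitrate, where it averaged 3.65 in shoots and 3.72 in roots, and it ran opposite to the other 5 at low nitrate. Without it, a choice made after its values were seen, the sum was between 36.9 and 47.8 in low-nitrate shoots and between 38.6 and 47.5 in sufficient-nitrate shoots, and in roots between 49.9 and 56.0 at low nitrate and between 56.2 and 61.3 at sufficient nitrate. In shoots the 6 genes showed 1 called rise, that of SWEET14, and 2 called falls.

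Over the 12 shoot groups of line and supply, which share the nitrate contrast, the mean of the root-enriched probe sets correlated with PPDK at r = 0.67, with WRKY6 at 0.65, with SAG101 at 0.55, with WRKY53 at 0.45 and with SAG29 at 0.25. The shoot-enriched probe sets ran opposite to WRKY6 (r = -0.93) and PPDK (r = -0.89). The part of these organ-enriched transcripts in the results was not tested.

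**Figure D5:**
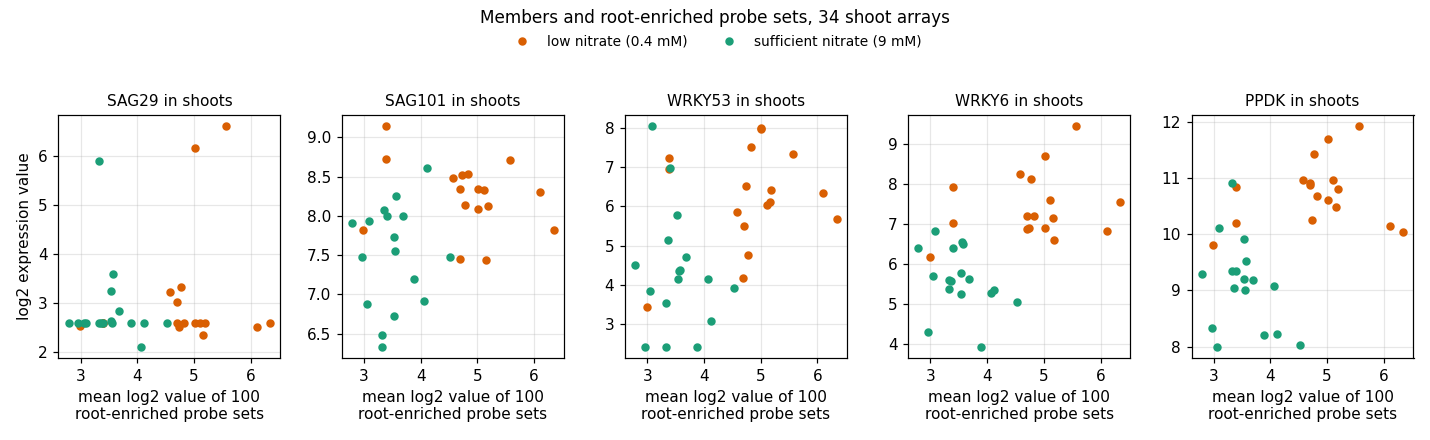
Log2 value of each gene (vertical axes) against the mean of the 100 root-enriched probe sets (horizontal axis) in the 34 shoot arrays, orange for low and green for sufficient nitrate. Low-nitrate arrays spread from 2.99 to 6.35 on the horizontal axis and sufficient-nitrate arrays from 2.79 to 4.52, so the supplies overlap there.

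The genes also varied together to different degrees. Across the 12 shoot groups WRKY6 and PPDK had r = 0.96, WRKY53 and PPDK 0.80, WRKY53 and WRKY6 0.72, and SAG101 and PPDK 0.65. Across the 12 root groups WRKY6 and PPDK had r = -0.02, and the highest value was that of SAG29 and PPDK (0.67). These are descriptions over group means that share lines and supplies.

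Genes with the most similar pattern were taken as the 3 with the highest Pearson r over the 24 group means, each centred on its organ. For WRKY6 these were AT5G40690 (r = 0.958), AT5G52740 (0.926) and AT4G03260 (0.926). AT5G40690 rose in shoots by 3.00 and in roots by 0.35, and AT5G52740 rose in shoots by 3.72 and differed by 0.00 in roots. The root SE of AT5G52740 was 0.00085, so its root readings hardly varied within a group and may hold no signal. For PPDK they were AT1G19020 (0.895), AT3G50910 (0.895) and SUFE2 (0.892), a chloroplast activator of cysteine desulfurase, and all 3 rose in both organs, SUFE2 by 4.65 in shoots and 2.21 in roots.

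For WRKY53 the most similar genes were AT5G52760 (0.882), AT1G13470 (0.874) and AT4G23470 (0.870), of which AT5G52760 rose by 4.10 in shoots and 1.70 in roots. For SAG101 they were AT3G19660 (0.811), FIS1B (0.809), a homologue of an organelle fission factor, and AT3G53970 (0.798), and all 3 rose in shoots by between 0.45 and 1.39. For SAG29 they were NGA4 (0.804), a B3-type transcription factor, PAP20 (0.795), a purple acid phosphatase, and UGT73C7 (0.783), a glycosyltransferase, none of them called in shoots. The root SE of NGA4 was 0.001, so the same limit holds for its root readings as for those of AT5G52740.

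Other genes of the same pathways could be followed only in small number. In all, 6 lists with 106 genes, covering senescence transcription factors, senescence-associated genes, chlorophyll breakdown, EDS1 partners, amino acid metabolism around PPDK, and defence, were matched by the same annotation rule. Only 3 of the 106 genes had a probe set of their own here, 7 were set aside because their name and locus differed in the annotation, and 4 lists had none. The annotation used gave no gene for 8730 of the 22746 probe sets and several genes for 503. A gene without a probe set here may thus still be measured by one that the annotation leaves unnamed. NOL, a chlorophyll b reductase subunit, was the only 1 of 11 chlorophyll breakdown genes; it fell in shoots by 0.36 ± 0.06 (8.77 at low and 9.14 at sufficient nitrate, limma, adjusted p = 1.74e-05) and rose in roots by 0.37 ± 0.13 (adjusted p = 0.0295). EIN3, a transcription factor of the ethylene pathway, rose in shoots by 0.53 ± 0.10 (10.62 at low and 10.10 at sufficient nitrate, adjusted p = 6.37e-05) and was not called in roots (0.09). WRKY22, a transcription factor linked to dark-induced senescence and defence, fell in shoots by 0.73 ± 0.29 (3.66 at low and 4.40 at sufficient nitrate, adjusted p = 0.0417) and was not called in roots (0.06).

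Among the 6 WRKY genes with a probe set of their own, WRKY53 and WRKY6 included, 4 rose and 1 fell in shoots, with a median of 0.60, and 2 rose and 1 fell in roots, with a median of 0.03, where 28% of all probe sets were called higher and 21.9% lower in shoots and 23.6% and 19.1% in roots. WRKY53 and WRKY6 were chosen with earlier results of these data known, so these counts and medians are no result about the family. The other rises in shoots were those of WRKY47 and WRKY20 (0.18 ± 0.06). WRKY47 rose in shoots by 1.01 ± 0.13 (limma, adjusted p = 5.94e-07) and fell in roots by 0.48 ± 0.11 (adjusted p = 0.000655). WRKY20 rose in roots by 0.44 ± 0.04 (adjusted p = 1.51e-08). WRKY42, counted among the 6, read 2.11, the lowest value of the table, in every shoot array used, so it gave no usable reading there. The direction in shoots differed within the family only through WRKY22, which was dim (3.66 at low and 4.40 at sufficient nitrate).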

How the data were processed

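Expression was measured in 72 Affymetrix arrays of Arabidopsis shoots and roots. The deposited values are log2 expression values, and affy, GCRMA and limma are named, with no version, in the submitters' processing notes. The set of arrays that shared a normalisation is not stated there. Array files with raw intensities were not used here. Probe sets were named from the platform annotation, and array columns were matched to samples by the labels.

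The members and lists, and the choice to leave out the 4 arrays labelled Fei-0 replicate 3, were made with earlier results of these data known. A group-means model was fitted with limma 3.58.1 (R 4.3.3) for each organ (34 arrays, 12 groups) and for both together (68 arrays, 24 groups), on all 22746 probe sets, with empirical Bayes moderation, Benjamini-Hochberg adjustment and a threshold of 0.05. Line tests were F tests over 5 differences. Mean responses weight the 6 lines equally. The models were tested on simulated data. The number of arrays limits the precision. In each comparison the text names the 5 members, the 3 genes most like each member, and up to 3 list genes that rose and 3 that fell. Sequences and coordinates are not reported here. The alternatives were all arrays as labelled, median-centred and quantile-normalised arrays, a filter on mean value (at least 5), a replicate block, a block within each line (added after seeing the data), an intensity trend with robust moderation, each array left out, and the Fei-0 line left out.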

Additional observations from a re-analysis of the deposited data

Results flagged for a closer look

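The response to nitrate supply differed between the organs for 4 of the 5 genes by the test of that difference in the joint model: shoot response minus root response was 1.84 for WRKY6, 1.14 for WRKY53, 1.06 for PPDK and 0.64 for SAG101 on the log2 scale. Among all probe sets 24.5% were called higher and 19% lower in that contrast. That model took shoot and root arrays as independent. Root readings of PPDK and WRKY53 were dim. For both, a smaller root response cannot be told from one held down near the bottom of the scale. With centred arrays SAG101 (limma, adjusted p = 0.0597) and WRKY53 (adjusted p = 0.0648) lost the call, and that of WRKY53 was also lost on leaving out any of 26 of the 68 arrays. In roots, WRKY6 responded unequally among the lines by the F test (limma, adjusted p = 0.0441), with a called fall in NG064 and positive values in El-0 and Fei-0, where 6.24% of all probe sets were called by that test. The call was lost with all 72 arrays as labelled (adjusted p = 0.217), without the Fei-0 line (adjusted p = 0.139) and on leaving out any of 21 of the 34 root arrays, and the NG064 fall lost its call as labelled (adjusted p = 0.221).

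In the arrays left out, 3 values of the 5 genes lay above the 17 arrays used of the organ and supply they were labelled as. PPDK read 11.09 in replicate 3 of Fei-0 labelled sufficient-nitrate root, where the 17 sufficient-nitrate root arrays used ended at 6.29. SAG29 read 4.15 in the same array, where those 17 arrays ended at 2.70. WRKY6 read 8.88 in replicate 3 of Fei-0 labelled sufficient-nitrate shoot, where the 17 sufficient-nitrate shoot arrays used ended at 6.84. Values below the arrays used occurred as well. Among them, PPDK read 3.98 in that shoot-labelled array (lowest used 7.99) and WRKY6 read 7.25 in the root-labelled array (lowest used 8.26). In the array check the root-labelled array was closest to low-nitrate shoots, and the shoot-labelled array to low-nitrate roots.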

How the results depend on the processing

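The mean rises of SAG101, WRKY53, WRKY6 and PPDK in shoots kept their direction and their call under every alternative that measured them, and so did that of SAG29 in roots, where the filter on dim probe sets removed SAG29, WRKY53 and PPDK. With all 72 arrays as labelled, the mean response in roots was -0.013 for SAG101 and 0.43 for WRKY53 (not called), and adjusted p was 0.217 for the interaction of WRKY6 in roots, 0.301 for its line level in roots, 0.0568 for its line level in shoots, 0.581 for the line level of PPDK in shoots and 0.0475 for that of SAG101 in shoots. The responses of Fei-0 roots then read -0.077 for SAG29, -0.33 for SAG101 and -1.97 for PPDK, and the level of PPDK in Fei-0 shoots against the other lines was -0.36. The 4 arrays added there are those that go against their labels. Without the Fei-0 line, the mean response in roots was 0.31 for WRKY53 and -0.10 for WRKY6, WRKY53 was higher in sufficient-nitrate shoots than roots by 0.51, and adjusted p was 0.139 for the interaction of WRKY6 in roots, 0.0603 for the line level of SAG101 in roots and 0.0229 for that in shoots. SAG101's line level in shoots was also called with centred arrays (0.0449), quantile normalisation (0.0481) and the filter on dim probe sets (0.0305). The number of members called higher in roots was 1 as labelled, 1 without Fei-0 and 0 under that filter, which removed those that were called.

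Array medians averaged 5.98 in low-nitrate shoots and 5.80 in sufficient-nitrate shoots. Centring takes this difference off every value, including the 27% of values within 0.1 of the lowest. Counts with centred arrays can thus include readings without signal. Centring each array moved the calls over all probe sets to 13125 lower in shoots, against 4979, and to 11201 higher in roots, against 5376. It gave 12336 probe sets higher in sufficient-nitrate shoots than roots, against 6469 (4256 under the filter on dim probe sets), and 3652 higher and 12597 lower for the shoot response minus the root response, against 5564 and 4329. The interaction called 501 probe sets in roots as labelled, against 1420, and 46 in shoots under that filter, against 253. Under centring the shoot response minus the root response was 0.42 for SAG101 and 0.93 for WRKY53, neither called, so 2 of the 5 genes were called; with quantile normalisation it was 0.98 for WRKY53, not called. The SAG29 response in shoots became -0.10 in NG064 and -0.086 in SG063 with centring and 0.012 in NG087 with quantile normalisation. Where no value is given for the cause of such a change, the cause was not tested.

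With 1 array left out in turn, called and uncalled results moved as follows. The mean response in roots ran from 0.49 to 0.73 for WRKY53, from 0.43 to 0.72 for PPDK and from -0.028 to 0.034 for WRKY6, and 1 to 3 members were called higher there. Adjusted p ran from 0.0221 to 0.109 for the interaction of WRKY6 in roots, from 0.0133 to 0.136 for the line level of SAG101 in shoots, from 0.00565 to 0.139 for that of SAG29 in shoots and from 0.034 to 0.166 for that of WRKY53 in roots. SAG29 in low-nitrate shoots minus roots ran from -0.33 to 0.26, and the shoot response minus the root response of WRKY53 from 0.95 to 1.33. Uncalled responses of single lines that changed sign were, in shoots, SAG29 in El-0 (-1.07 to 0.93), NG064 (-0.051 to 0.19) and SG063 (-0.083 to 0.24) and WRKY53 in El-0 (-0.50 to 1.68) and Fei-0 (-1.64 to 0.64). That of SAG29 in NG087 shoots (-0.024 to 0) reached 0 without changing sign. In roots those that changed sign were SAG101 in El-0 (-0.12 to 0.37), KB006 (-0.033 to 0.19) and NG087 (-0.0047 to 0.33), PPDK in NG064 (-0.55 to 0.56) and NG087 (-1.33 to 0.45) and WRKY6 in SG063 (-0.17 to 0.084).

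The labels give replicate numbers no shared origin. Deviations of same-numbered arrays of the 2 supplies correlated at a median of 0.0634 over 34 pairs, 14 of them over 0.1, and those of different number at -0.0197 over 64 pairs, 14 of them over 0.1. Deviations from a group mean cancel out within the group, so these pairs are not independent of each other. In Fei-0 shoots, with 2 arrays per supply, same-numbered pairs gave -0.249 and the others 0.249. Pairs of shoot and root arrays were not compared. In the shoots of KB006, NG087 and SG063 all 3 same-numbered pairs were over 0.1, so pairing there is not settled, and in the other lines and in roots they were not. With the replicate number as a block, 6413 probe sets were called higher and 4974 lower in shoots and 5373 and 4343 in roots. Among the members, SAG29 in KB006 roots (0.88, adjusted p = 0.0549) and the level of SAG101 in KB006 shoots (adjusted p = 0.0532) lost the call under that block. A block for each replicate number of each line, added after seeing the data, kept the calls of the mean responses of the members and those of single lines in the shoots of KB006, NG087 and SG063. It ended those of WRKY6 in El-0 (adjusted p = 0.0504) and Fei-0 shoots (0.0972), WRKY53 in NG064 shoots (0.103) and SAG29 in KB006 roots (0.0534), and it called SAG29 in Fei-0 shoots (1.90, adjusted p = 0.0196), WRKY6 in Fei-0 roots (0.51, adjusted p = 0.0372) and the WRKY6 response of NG064 roots against the other 5 lines (-0.60, adjusted p = 0.0495). The interaction then called 145 probe sets in shoots and 451 in roots. Dim probe sets limit SAG29, which sat at a repeated low value in 32 of 68 arrays. Dim readings also limit PPDK in roots, and WRKY53 in roots and in sufficient-nitrate shoots.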

Other observations

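SWEET14, a sucrose transporter gene of the same family as SAG29 that stood in the list of root markers, was singled out after its values were seen. In roots its mean was 8.01 ± 0.53 at low nitrate and 3.72 ± 0.51 at sufficient nitrate (SD over 17 arrays per supply), ranging from 7.19 to 8.87 at low nitrate and from 2.99 to 4.93 at sufficient nitrate, so the supplies did not overlap. The mean rise was 4.26 ± 0.13 in roots (limma, adjusted p = 3.98e-17) and 0.60 ± 0.22 in shoots (adjusted p = 0.0248). SAG29 rose by 0.70 in the same roots.

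The photosynthesis and chlorophyll genes used as shoot markers fell in roots at low nitrate, all 9 of them, by between 0.95 for LHCB4.3 and 3.96 for HPR on the log2 scale. In low-nitrate roots HPR averaged 2.66 and PRK 2.90, near the lowest value of the table, 2.11. The sizes of such falls are thus not exact folds, and their order is uncertain. In shoots 7 of the 9 fell, among them HPR by 1.14 and SBPASE by 1.13 (limma, adjusted p = 6.9e-12 and 1.66e-10), and LHCB4.3 (-0.41) and PORB (-0.40) were not called. Among all probe sets 19.1% were called lower in roots and 21.9% in shoots. The 5 root markers of the ER body system also fell in roots, by between 0.53 for PYK10 and 2.53 for JAL22.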
